A study of Mus musculus with 36 samples.

Results

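Small leucine-rich proteoglycans (SLRPs) were followed through brown adipocyte differentiation as 9 genes: Ogn, Dcn, Lum, Bgn, Fmod, Omd, Aspn, Prelp and Podn. The set was chosen by family membership together with one measured value, since Ogn had the largest decrease between days 0 and 2 among well-expressed genes of these same libraries. The differences between days 0 and 2 are therefore given as a description, without a test of the members. The 9 genes are 9 of the 55536 genes counted in each of 36 RNA sequencing libraries, and all 9 passed the filter on low counts that left 16723 genes for testing. All cells derived from a brown pre-adipocyte line in which Cas9 had disrupted Rxra, the gene of the nuclear receptor RXRα, and came from 2 monoclonal Rxra-/- lines, clones 48 and 66. Every line then received mouse Rxra cDNA from a retrovirus under hygromycin selection, either wild type (RxraWT) or with alanine in place of serine 22 (RxraSA), so that in all lines RXRα came from a retroviral construct. Cells reached confluence at day 0 in medium with insulin and triiodothyronine, were induced for 2 days with dexamethasone, isobutylmethylxanthine and indomethacin in addition, and were then kept with insulin and triiodothyronine until day 6. Each clone, genotype and day had 3 replicates, which gave 6 libraries per clone and day and 12 libraries per day. The libraries of clone 48 formed pool 1 and those of clone 66 formed pool 2, so clone and pool cannot be told apart. The replicates are described as technical in the series' design text and as independent in the study's text, and the p-values therefore measure only the spread between these libraries.

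SLRPs are secreted proteins whose core is built of leucine-rich repeats, and most carry chondroitin, dermatan or keratan sulfate chains. They bind collagen fibrils and govern fibril growth and spacing, and several bind growth factors of the TGF-β family, matrix enzymes or cell surface receptors. Dcn (decorin), Bgn (biglycan) and Aspn (asporin) form class I, Fmod (fibromodulin), Lum (lumican), Prelp and Omd (osteomodulin) form class II, Ogn (osteoglycin, also called mimecan) belongs to class III and Podn (podocan) to class V. In adipose tissue they are products of stromal and precursor cells in particular, and fat cell formation is accompanied by a replacement of the fibrillar matrix.

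Several of the 9 genes are neighbours on the mouse genome (GRCm38, GENCODE M21). On chromosome 13 the genes Ecm2, Aspn, Omd and Ogn follow each other on the plus strand. Ecm2, a related leucine-rich matrix gene outside the 9, spans 49504810 to 49532789, Aspn 49544443 to 49567565, Omd 49582462 to 49592822 and Ogn 49608046 to 49624501. The gaps between them measure 11.65, 14.9 and 15.22 kb and hold no protein-coding gene, although Cenpp runs through the region on the opposite strand and shares 7 exon bases with Aspn. On chromosome 10, Dcn (97479609 to 97518143) and Lum (97565128 to 97572703) lie 46.98 kb apart on the plus strand and are followed by Kera and Epyc, also SLRP genes. On chromosome 1, Prelp (133910304 to 133921414, minus strand) and Fmod (134037254 to 134048277, plus strand) are separated by 115.84 kb. Bgn (73483602 to 73495933, plus strand) is on chromosome X and Podn (108014791 to 108096445, minus strand) on chromosome 4. Of the exon bases of Prelp, 350 (9.68%) overlap the antisense gene Gm15851. The reads were counted without strand, so reads from this stretch cannot be told apart, but Gm15851 itself received at most 6 counts in any library.

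The promoter windows of the chromosome 13 genes that were low at day 2, and that of Prelp, the gene with the largest increase between days 2 and 6, are shown so that the genes can be compared. They come from RefSeq (GRCm38.p6), run 5′ to 3′ on the gene's strand from 250 bases before to 50 bases after the start site, and had entries for 7 of the 9 genes. The windows are chr13:49607765-49608064 (plus strand) for Ogn, chr13:49582212-49582511 (plus) for Omd, chr13:49544193-49544492 (plus) for Aspn and chr1:133921352-133921651 (minus) for Prelp. Capitals mark matches on either strand to the TATA box motif (TATAAA), the CCAAT box, the AP-1 motif (TGANTCA) and the TEAD motif (GGAATG).
Ogn: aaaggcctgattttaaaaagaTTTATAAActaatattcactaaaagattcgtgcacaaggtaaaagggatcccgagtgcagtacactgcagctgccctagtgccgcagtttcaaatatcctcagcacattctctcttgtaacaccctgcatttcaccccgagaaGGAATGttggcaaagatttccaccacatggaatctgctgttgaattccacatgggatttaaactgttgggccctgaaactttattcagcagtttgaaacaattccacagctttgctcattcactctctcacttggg
Omd: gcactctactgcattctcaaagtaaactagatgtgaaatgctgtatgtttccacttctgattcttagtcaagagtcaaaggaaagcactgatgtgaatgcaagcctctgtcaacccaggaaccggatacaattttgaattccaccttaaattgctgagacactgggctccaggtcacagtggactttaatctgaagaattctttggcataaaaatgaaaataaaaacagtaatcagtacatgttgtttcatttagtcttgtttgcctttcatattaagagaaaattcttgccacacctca
Aspn: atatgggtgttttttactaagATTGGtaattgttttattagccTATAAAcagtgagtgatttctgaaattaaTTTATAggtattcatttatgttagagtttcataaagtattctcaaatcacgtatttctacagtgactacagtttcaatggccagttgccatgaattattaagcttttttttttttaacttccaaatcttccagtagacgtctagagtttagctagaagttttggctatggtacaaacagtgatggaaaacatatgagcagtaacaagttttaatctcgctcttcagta
Prelp: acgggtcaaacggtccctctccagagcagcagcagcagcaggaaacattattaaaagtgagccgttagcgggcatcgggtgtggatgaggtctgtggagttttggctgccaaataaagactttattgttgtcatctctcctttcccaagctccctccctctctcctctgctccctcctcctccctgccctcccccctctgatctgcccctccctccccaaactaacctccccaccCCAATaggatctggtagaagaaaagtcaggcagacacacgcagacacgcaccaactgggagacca
The Ogn window held the TATA box motif 227 bases before the start site, overlapping a match on the other strand, and the TEAD motif 86 bases before it. The Aspn window held the TATA box motif 207 bases before the start, the same motif on the other strand 178 bases before it, and the CCAAT box on the other strand 229 bases before it. The Prelp window held the CCAAT box 15 bases before the start. None of these 4 motifs was found in the Omd window. Among 32851 promoter windows of the same length, 13.6% held the TATA box motif, 37.4% the CCAAT box, 7.81% the AP-1 motif and 14.7% the TEAD motif. The chromosome 13 windows were low in G and C, with 42.3% for Ogn, 37.7% for Omd and 31% for Aspn against a median of 52.7% over all windows, while the Prelp window had 55.3%.

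Total counts per library lay between 11351078 and 24349263 (median 18338726). The lowest total, of clone 48 RxraSA replicate 1 at day 0, was kept, and its omission changed none of the counts of called members given here. Rxra, which includes the retroviral transcript, was present in every library, from 92.6 to 233 CPM at day 0. CPM are counts scaled to the library size corrected by TMM, and RPKM are these values per kilobase of exon. The summed level of 8 adipocyte markers was 90.9 to 210.1 CPM at day 0 and 5415 to 9454 CPM at day 6. Its largest parts at day 6 were Fabp4 (median 3145 CPM) and Adipoq (median 2105 CPM). Ucp1, which defines thermogenic brown adipocytes, did not exceed 0.307 CPM at day 6, and Cidea did not exceed 1.66 CPM. In bulk RNA, fewer cells of a type and less RNA per cell cannot be told apart.

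Summed over the 9 genes, the SLRP level per length was high in the pre-adipocytes and low from day 2 on. In clone 48 the sum was 269 ± 49.2 RPKM at day 0, 16.1 ± 5.78 at day 2 and 29.4 ± 5.09 at day 6 (SD, n = 6). In clone 66 it was 300.5 ± 91, 38.8 ± 4.49 and 23.1 ± 5.72 RPKM. The shares of the genes in this sum differed between days. Ogn made up 49.9 ± 2.55% of it in clone 48 and 56.3 ± 4.76% in clone 66 at day 0, but 4.04% and 1.69% at day 2. At day 2, Bgn held 50.5% in clone 48 and 52.4% in clone 66, and Aspn held 42.2% and 44.8%. At day 6 the largest shares were those of Aspn in clone 48 (32%) and Bgn in clone 66 (31.6%), and Prelp, at 0.0328% and 0.0217% on day 0, had come to 27.4% and 21.2% in clones 48 and 66.

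**Figure D1:**
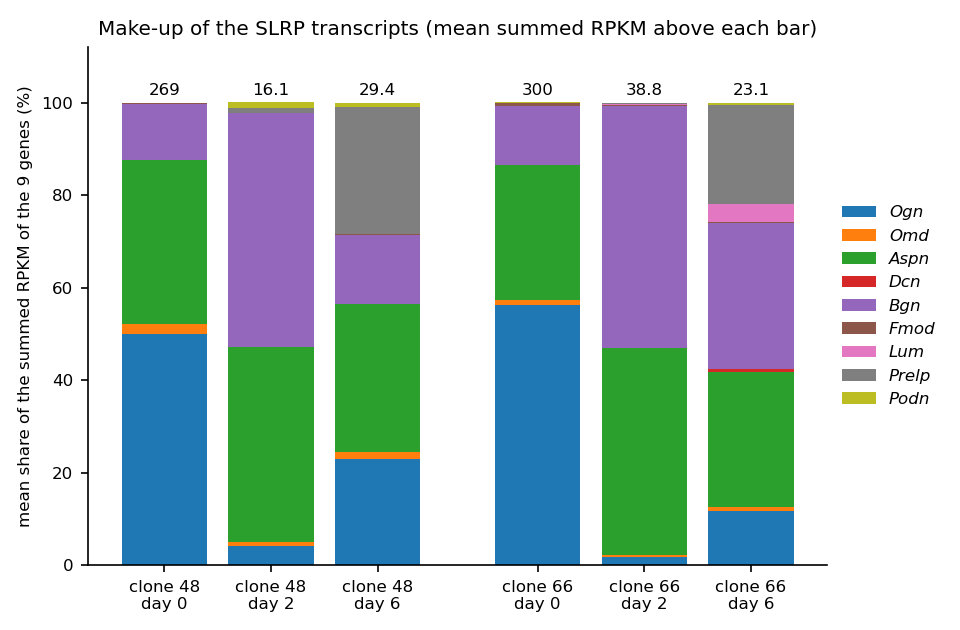
Stacked bars give the mean share of each of the 9 genes in their summed RPKM (percent, vertical axis) for each clone and day, with the mean summed RPKM of the 6 libraries above each bar. Ogn fills 49.9% and 56.3% of the bars of day 0, Bgn and Aspn nearly fill those of day 2, and Prelp takes 27.4% and 21.2% at day 6.

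The order of the levels per length also differed between days. At day 0 the highest level was that of Ogn (median 124 RPKM in clone 48 and 169 in clone 66), followed by Aspn (88.9 and 90.8), whose range overlapped that of Ogn in both clones. Bgn (31.3 and 33.5 RPKM) lay below Aspn without overlap, Omd (5.04 and 2.53) lay below Bgn without overlap, and the other 5 genes had medians under 2 RPKM. At day 2 Bgn (6.83 and 20 RPKM) and Aspn (5.13 and 15.3) led with overlapping ranges, and Ogn (0.509 and 0.51) was next, without overlap with Aspn. At day 6 the order in clone 48 was Aspn (8.62), Prelp (6.53), Ogn (6.43) and Bgn (3.92 RPKM), and in clone 66 it was Bgn (7.9), Aspn (7.23), Prelp (6.17) and Ogn (2.51 RPKM). Each neighbour in the day 6 order overlapped the next in both clones, and the gene after these 4 lay apart from them.

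The first interval is the one that chose the members. In the comparison of day 2 with day 0, 73.3% of the genes in the test reached an adjusted p under 0.05 by edgeR's quasi-likelihood test, 35.8% of them all being higher and 37.5% lower at day 2. With library size in place of TMM scaling, the median log2 difference over the genes tested shifted by -0.26, and 33.6% of the called genes were higher against 48.9% with TMM. Of the 9 genes, 8 passed the same threshold, 7 lower (Ogn, Fmod, Omd, Dcn, Aspn, Bgn, Lum) and Podn higher. Since the members were chosen with this comparison, nothing is read from that count. Their median log2 difference was -2.92, and that of all genes tested was -0.015.

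Ogn, whose protein binds collagen and was first obtained from bone, was among the abundant transcripts of the confluent pre-adipocytes. At day 0 its level was 285 to 439 CPM (median 319) in clone 48 and 257 to 642 CPM (median 434) in clone 66. At day 2 it was 1.04 to 3.16 CPM (median 1.31) and 0.924 to 3.08 CPM (median 1.31). The highest library of day 2 thus lay far below the lowest library of day 0 in both clones, and counts per library went from 4905 to 12621 at day 0 down to 15 to 55 at day 2. The log2 difference was -7.85 ± 0.30 (standard error), or 230-fold. Just behind it among 6419 genes whose average log2 CPM was 5 or more stood Acta2 (-7.71), the smooth muscle actin, and Sfrp2 (-7.18), a secreted Wnt antagonist. None of the other members reached that rank, Fmod being too low in level to be in this set. Ifit1, whose average level was also too low for this set, had a larger log2 difference than Ogn (-8.08).

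The neighbours of Ogn on chromosome 13 were also lower at day 2. Omd, a keratan sulfate proteoglycan named for its place in bone, went from 10.1 to 19.8 CPM (median 11.3) in clone 48 and 4.91 to 11.2 CPM (median 5.69) in clone 66 at day 0 to 0.139 to 0.633 CPM and 0.109 to 0.866 CPM at day 2. The ranges of the 12 libraries did not overlap, and the log2 difference was -4.85 ± 0.25. Aspn, which binds collagen and TGF-β and has a run of aspartate residues in place of attached chains, stood at 154 to 324 CPM (median 209) in clone 48 and 125 to 287 CPM (median 214) in clone 66 at day 0. At day 2 it was 4.96 to 36.9 CPM (median 12.1) in clone 48 and 23.6 to 64 CPM (median 36) in clone 66. The ranges of days 0 and 2 did not overlap, and the log2 difference was -2.92 ± 0.30, or 7.56-fold. Ecm2, the fourth gene of this row and not one of the 9, had a log2 difference of -3.22 ± 0.24.

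Fmod, a class II member that competes with lumican for a site on collagen, was of low abundance throughout. At day 0 it had 0.84 to 4.07 CPM (median 1.53) in clone 48 and 1.85 to 9.94 CPM (median 6.48) in clone 66. At day 2 only 5 counts were left over the 6 libraries of clone 48 and 5 over those of clone 66, against 243 and 837 at day 0. All 12 libraries of day 2 lay below all 12 of day 0, with a log2 difference of -6.25 ± 0.48.

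Bgn, the class I proteoglycan that carries chondroitin or dermatan sulfate and can act on Toll-like receptors, had the smallest difference among the well-expressed members. It went from 133 to 236 CPM (median 191) in clone 48 and 157 to 254 CPM (median 204) in clone 66 at day 0 to 37 to 57 CPM (median 41.6) and 96.4 to 149 CPM (median 122) at day 2. The day 2 libraries of clone 66 thus remained much closer to day 0 than those of clone 48. The log2 difference over both clones was -1.41 ± 0.19, with -2.07 ± 0.24 within clone 48 and -0.76 ± 0.23 within clone 66. Podn, whose protein binds type I collagen, differed in the other direction, by 2.45 ± 0.31. Its level was low on both days, 0.0606 to 0.287 CPM in clone 48 and 0 to 0.115 CPM in clone 66 at day 0, and 0.551 to 1.2 CPM and 0.154 to 0.504 CPM at day 2. Prelp, a basement membrane and cartilage protein with a heparin-binding end, did not pass the threshold (0.58 ± 0.45), with medians of 0.275 and 0.262 CPM at day 0 and 0.352 and 0.217 CPM at day 2 in clones 48 and 66.

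**Figure D2:**
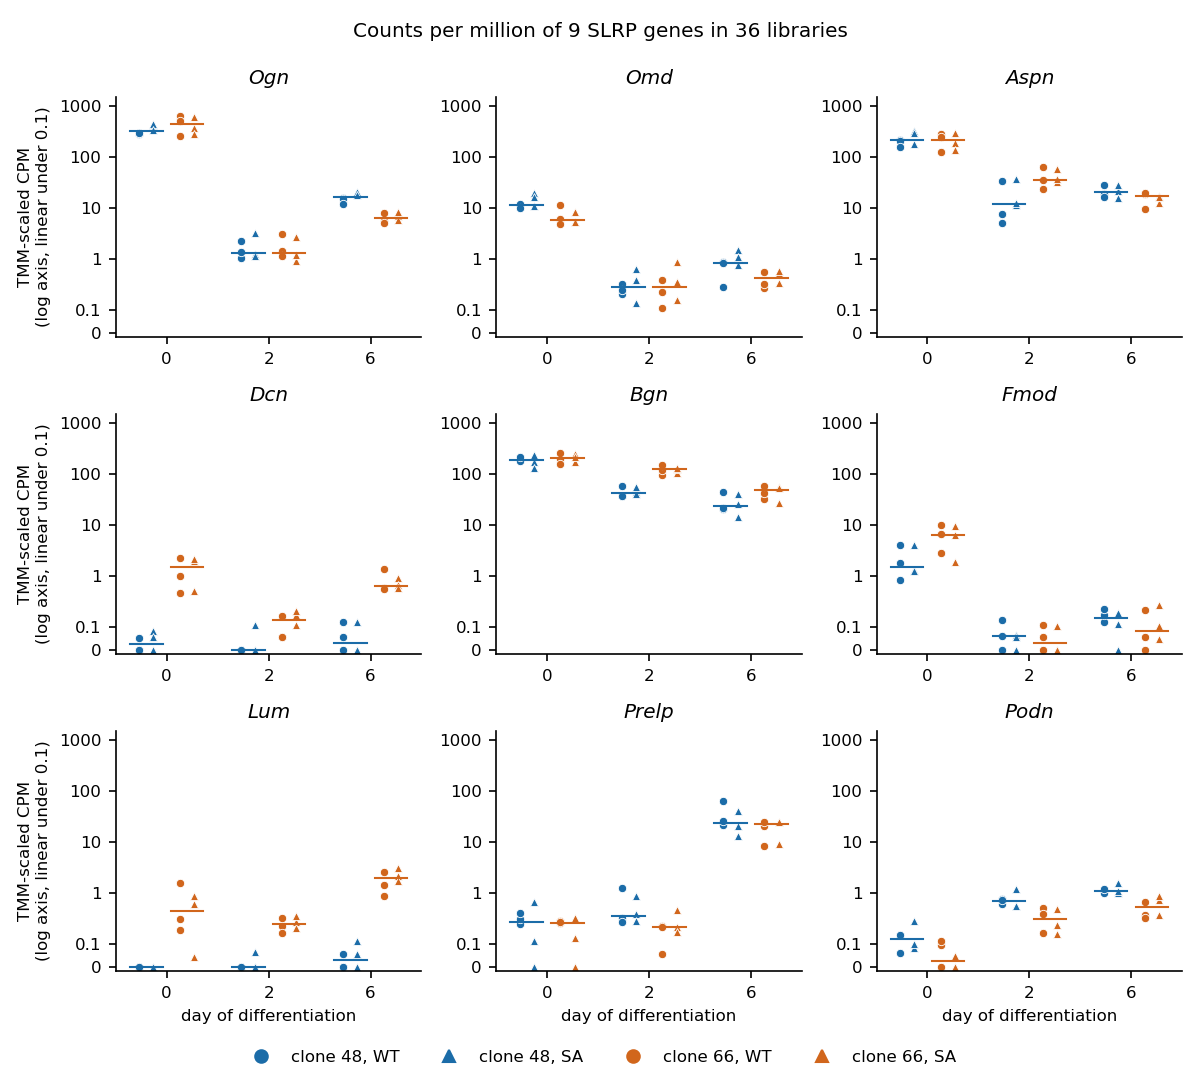
Each panel shows 1 gene, with the TMM-scaled CPM of each of the 36 libraries (vertical axis, logarithmic and linear under 0.1 CPM) at days 0, 2 and 6. Colour marks the clone, circles are RxraWT and triangles RxraSA, and short horizontal lines mark the medians of 6 libraries. Ogn, Omd, Aspn and Fmod at day 2 lie below every library of day 0, Prelp stands out at day 6, and Dcn and Lum are near 0 in clone 48.

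Between days 2 and 6 the level of Prelp rose from near 0, Lum rose, and Ogn, Omd and Dcn, all lower at day 2, were higher again. This comparison shares the libraries of day 2 with the one that chose Ogn, so Ogn itself is given as a description. Of all genes tested, 62% were called, 31.9% higher and 30.2% lower at day 6, and 57.7% of the called genes were higher with library size alone against 51.4% with TMM. Of the 9 genes 7 were called, with Prelp, Lum, Ogn, Dcn, Omd and Podn higher and Bgn lower. Prelp and Lum passed the filter on low counts through day 6, so their calls repeat that selection. The median log2 difference of the 9 genes was 1.31, against 0.012 over all genes tested.

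Prelp rose from the medians of day 2 given above to 12.9 to 62.2 CPM (median 23.6) in clone 48 and 8.18 to 25 CPM (median 22.3) in clone 66 at day 6. Its counts per 6 libraries were 55 and 25 at day 2 and 3164 and 2185 at day 6, and no library of day 6 overlapped those of day 2. The log2 fold change was 5.95 ± 0.34 (61.9-fold), with 5.69 ± 0.48 within clone 48 and 6.37 ± 0.53 within clone 66. Prelp passed the filter on low counts through day 6, so no p-value is given for this rise. Podn rose a second time, by 0.70 ± 0.22 on the log2 scale (adjusted p = 0.00609), to 0.99 to 1.6 CPM in clone 48 and 0.33 to 0.892 CPM in clone 66. Within the single clones this step gave 0.63 ± 0.29 and 0.78 ± 0.35, with adjusted p of 0.0645 and 0.0595.

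Ogn was higher at day 6 than at day 2 in every library, at 12 to 20.8 CPM (median 16.5) in clone 48 and 5.09 to 8.34 CPM (median 6.45) in clone 66. These levels were still far under those of day 0, and the log2 differences were 2.68 ± 0.27 from day 2 and -5.17 ± 0.26 from day 0. Omd rose by 0.90 ± 0.30 on the log2 scale (adjusted p = 0.00929) to 0.284 to 1.48 CPM in clone 48 and 0.268 to 0.58 CPM in clone 66. The rise of Omd was 1.39 ± 0.40 within clone 48 (adjusted p = 0.00463) and 0.38 ± 0.42 within clone 66 (adjusted p = 0.48). For Ecm2 the rise was 0.90 ± 0.25. Aspn was not called over both clones (-0.62 ± 0.29, adjusted p = 0.064), and its values in the clones had opposite signs, 0.29 ± 0.36 in clone 48 (adjusted p = 0.528) and -1.40 ± 0.36 in clone 66 (adjusted p = 0.0018). Bgn fell further, by 1.10 ± 0.19 on the log2 scale (adjusted p = 6.25e-06), to 14.4 to 45.1 CPM (median 23.9) in clone 48 and 26.9 to 58.7 CPM (median 48.2) in clone 66.

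Over the whole interval from day 0 to day 6, 68.3% of all genes tested were called, 32.9% higher and 35.4% lower, with 34.9% of called genes higher under library size alone against 48.2% with TMM. This comparison shares its day 0 libraries with the one that chose Ogn. Of the 9 genes 8 were called, 5 lower (Bgn, Aspn, Fmod, Omd and Ogn) and 3 higher (Prelp, Podn and Lum), with a median log2 difference of -2.51 against -0.034 over all genes. Prelp rose 92.7-fold (log2 6.53 ± 0.35) and Podn 8.88-fold (3.15 ± 0.29). Both passed the filter on low counts through libraries after day 0, so no p-value is given for them. Fmod fell by 4.94 ± 0.41 on the log2 scale and is likewise given without a p-value. The calls of Prelp, Podn, Lum and Fmod repeat the filter's selection, since each passed it only through the days on which it was higher. Omd fell by 3.95 ± 0.22 (adjusted p = 2.35e-17), Aspn by 3.53 ± 0.31 (adjusted p = 2e-12) and Bgn by 2.51 ± 0.20 (adjusted p = 1.99e-13). For Bgn, Aspn, Fmod, Omd, Ogn, Prelp and Podn the 12 libraries of day 6 did not overlap the 12 of day 0. The share of all genes tested without such overlap was not measured, so nothing particular to the members is read from this. Members of 1 structural class did not move as a block, since class II held both Fmod and Omd, which fell, and Prelp, which rose.

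**Figure D3:**
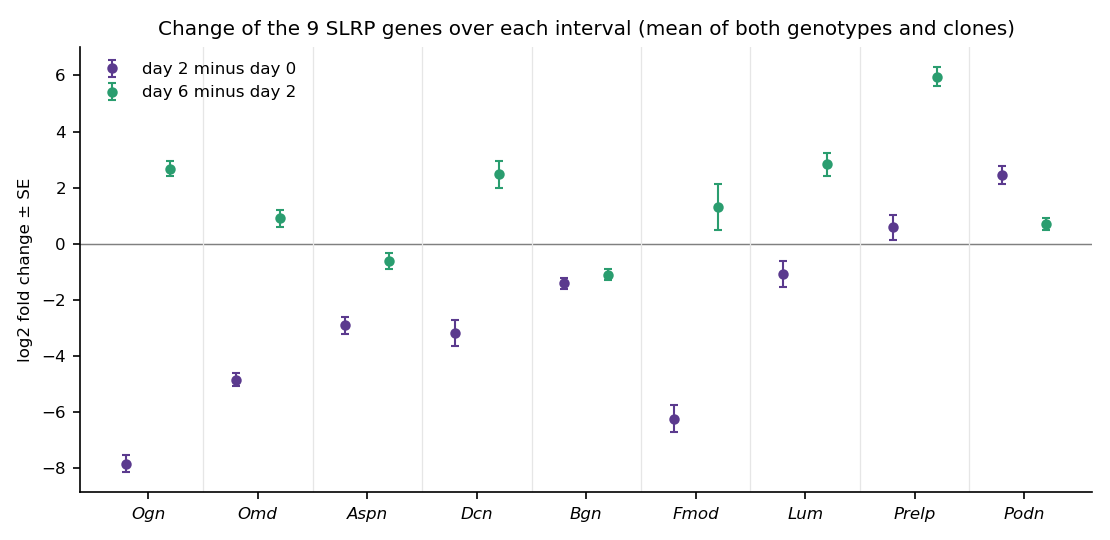
Log2 fold changes of the 9 genes with standard errors as bars, for day 2 minus day 0 and for day 6 minus day 2 (vertical axis, log2 scale, line at 0), as means of both clones and genotypes. Ogn at -7.85 and Fmod at -6.25 lie lowest in the first interval, and Prelp at 5.95 lies highest in the second.

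Dcn and Lum, adjacent on chromosome 10, were detected almost entirely in clone 66. Dcn, the best known regulator of collagen fibril width and a ligand of TGF-β and EGFR, had 3, 2 and 5 counts summed over the 6 libraries of clone 48 at days 0, 2 and 6, and 177, 14 and 90 counts in clone 66. Lum, a keratan sulfate proteoglycan of cornea and connective tissue, had 0, 1 and 4 counts in clone 48 and 76, 28 and 232 in clone 66. The summed count of 0 for Lum in clone 48 at day 0 allows a level of up to 0.0284 CPM (3 counts over the group). In clone 66, Dcn was at 0.46 to 2.29 CPM (median 1.51) at day 0, 0.0545 to 0.205 CPM at day 2 and 0.55 to 1.35 CPM (median 0.635) at day 6, and Lum was at 0.0432 to 1.58 CPM (median 0.453), 0.166 to 0.346 CPM (median 0.247) and 0.881 to 3.04 CPM (median 1.94). These are low levels even in clone 66, whose Bgn medians over the same days lay between 48.2 and 204 CPM.

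The summed counts of Dcn were 47.6-fold higher in clone 66 at day 0 (exact 95% counting interval 16 to 233), 6.03-fold at day 2 (1.39 to 54.6) and 15.8-fold at day 6 (6.53 to 49.9). For Lum, clone 66 was at least 20.4-fold higher at day 0, 24.1-fold at day 2 (3.99 to 986) and 51-fold at day 6 (19.6 to 189). These intervals and bounds cover counting error only. In clone 48 no library exceeded 0.124 CPM for Dcn or 0.114 CPM for Lum, so both genes passed the filter through clone 66 alone. A test between the clones would repeat that selection, so no p-value is given for Dcn and Lum. Kera and Epyc, the next genes in this row, had 3 and 5 counts in clone 66 at day 0, 1 each at day 2, and 0 and 1 at day 6, and no count in any of the 18 libraries of clone 48.

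The time courses of Dcn and Lum can thus be read in clone 66 alone. Dcn was lower at day 2 than at day 0, with a ratio of 0.0946 (0.0507 to 0.163), and 6.03-fold higher at day 6 than at day 2 (3.41 to 11.5). Its fold change between days 0 and 6 did not pass the threshold (-0.83 ± 0.37 on the log2 scale within clone 66, adjusted p = 0.0608). Lum had a ratio of 0.441 between days 2 and 0 (0.275 to 0.688), but its day 0 level rested in large part on 1 library, RxraWT replicate 2, with 33 of the 76 counts. Over both clones the log2 difference of Lum between days 0 and 2 was -1.08 ± 0.46, and -0.37 without that library. Within clone 66 the difference was -1.17 ± 0.56 and did not pass the threshold. From day 2 to day 6 Lum rose 7.77-fold (5.24 to 11.9), or by 2.90 ± 0.50 on the log2 scale within clone 66. It ended above its day 0 level (log2 1.72 ± 0.43 within clone 66). Lum passed the filter through clone 66 at day 6, so no p-value is given for these values. Fmod, by contrast, was present in both clones at day 0 and stayed near 0, with 14 counts in each clone at day 6.

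The clones also differed in SLRP genes that both expressed. Of all genes tested, 23.7% were called between the clones at day 0 (12.6% higher and 11.1% lower in clone 66), 30% at day 2 (14.5% and 15.5%) and 26.2% at day 6 (13.4% and 12.8%). Of the 9 genes the numbers called were 5 at day 0 (3 higher, 2 lower), 4 at day 2 (3 and 1) and 5 at day 6 (3 and 2). The 9 genes are too few for these shares to be set against the background. The numbers also include Lum on each day and Dcn at days 0 and 6, which passed the filter through clone 66 alone. They include Podn on each day as well, which passed it through clone 48, so no p-value between the clones is given for Podn. At day 0, clone 66 had more Fmod (log2 1.46 ± 0.38, adjusted p = 0.00484) and less Omd (-0.94 ± 0.24, adjusted p = 0.00452). It also had less Podn (-1.80 ± 0.66, on 15 and 6 summed counts in clones 48 and 66). The call of Podn was lost in 9 of the 36 fits that left out 1 library. Ogn (0.38 ± 0.24, adjusted p = 0.277), Aspn (-0.11, adjusted p = 0.87), Bgn (0.12, adjusted p = 0.759) and Prelp (-0.57, adjusted p = 0.628) were not called at that day.

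At day 2, Bgn and Aspn were higher in clone 66, Bgn by 1.44 ± 0.23 (adjusted p = 1.69e-05) and Aspn by 1.25 ± 0.36 (adjusted p = 0.00898) on the log2 scale. The Bgn libraries of the clones did not overlap at day 2, with 57 CPM as the highest of clone 48 and 96.4 CPM as the lowest of clone 66, whereas those of Aspn did. Podn was lower in clone 66 at day 2 (-1.20 ± 0.34) and at day 6 (-1.05 ± 0.29), without overlap on either day. As Podn passed the filter through clone 48, these values are a description. At day 6, Ogn was lower in clone 66 by 1.32 ± 0.25 on the log2 scale (adjusted p = 2.06e-04), and its lowest library of clone 48 (12 CPM) lay above the highest of clone 66 (8.34 CPM). Bgn was higher in clone 66 at day 6 (0.69 ± 0.23, adjusted p = 0.0257), a call that was lost without any one of 7 libraries of day 6. Prelp (-0.69 ± 0.36, adjusted p = 0.163) and Omd (-0.97 ± 0.37, adjusted p = 0.0503) were not called at day 6, although Omd lay at the threshold and passed it under other settings, and Prelp passed it in a fit with a block of the replicate number.

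**Figure D4:**
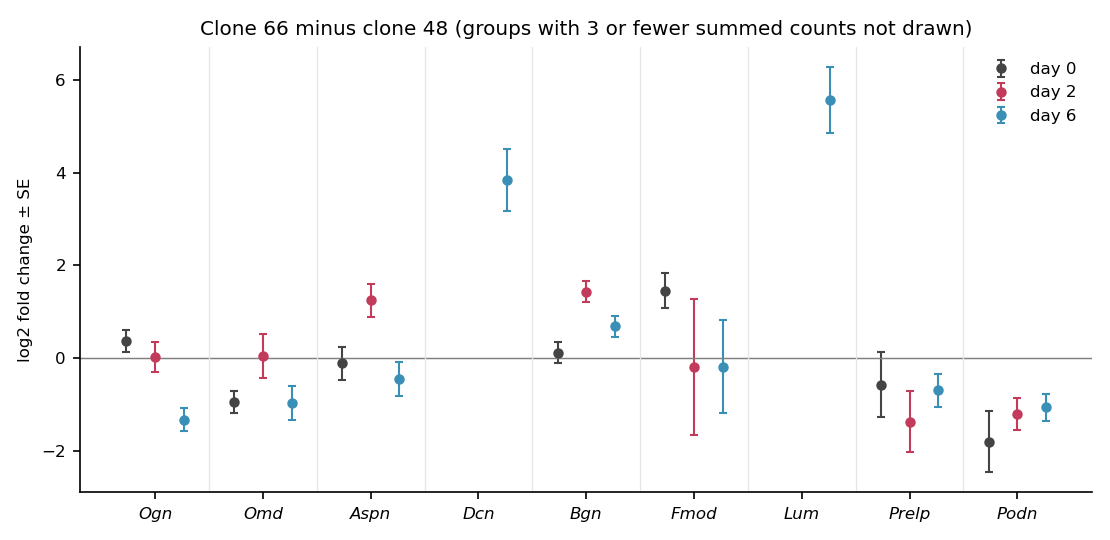
Log2 difference of clone 66 minus clone 48 at days 0, 2 and 6 for the 9 genes (vertical axis, log2 scale), with standard errors as bars. Values whose clone 48 group had at most 3 summed counts (Dcn and Lum at days 0 and 2) are not drawn. Bgn and Aspn lie above 0 at day 2, Ogn lies at -1.32 at day 6, and Podn lies below 0 on each day.

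Whether the time course itself differed between the clones was tested directly. Of all genes tested, 6.88% were called for day 2 against day 0 (3.63% with a more positive change in clone 66 and 3.25% with a more negative one), 3.82% for day 6 against day 0 (2.1% and 1.72%) and 6.17% for day 6 against day 2 (3.15% and 3.02%). Among the 9 genes, Bgn had the more positive change in clone 66 between days 0 and 2, by 1.31 ± 0.32 on the log2 scale (adjusted p = 0.009). Ogn had the more negative change in clone 66 between days 0 and 6 (-1.70 ± 0.35, adjusted p = 0.0028) and between days 2 and 6 (-1.35 ± 0.41, adjusted p = 0.0434). Aspn had the more negative change between days 2 and 6 (-1.69 ± 0.51, adjusted p = 0.0433). In the levels, Ogn of clone 66 had returned less after day 2 than Ogn of clone 48, and Bgn and Aspn of clone 66 were higher at day 2. The calls between days 2 and 6 were both lost in 14 of the 36 fits that left out 1 library, those without replicate 1 or 2 of day 6 in either genotype of either clone, without replicate 2 or 3 of day 2 of clone 48, or without replicate 1 of day 2 of clone 66.

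No member was called between RxraSA and RxraWT on any day. This comparison asks whether a receptor that cannot be phosphorylated at serine 22 changes the expression of these genes, and it was not used in choosing them. By edgeR's quasi-likelihood test 0% of all genes tested were called at days 0, 2 and 6 in either direction, 0% in the differences of time course between genotypes, and none of the 9 genes. Unadjusted p-values under 0.05 were found for 141, 165 and 122 genes at days 0, 2 and 6 and for 148, 127 and 157 genes in the differences of time course (days 0 to 2, 0 to 6 and 2 to 6). No member was among those of the single days, the lowest unadjusted p of a member being 0.113 (Omd at day 2). These p-values and the standard errors below come from the model without pairs of replicate numbers. They therefore include spread that same-numbered libraries share. A block for these pairs changed no call. DESeq2 called none of the 9 genes, and neither did the contrasts within each clone. The log2 difference of Ogn was 0.07 ± 0.31 for day 0, -0.02 ± 0.41 for day 2 and 0.36 ± 0.32 for day 6. The corresponding values were -0.07 ± 0.26, 0.02 ± 0.26 and -0.05 ± 0.27 for Bgn, and 0.22 ± 0.39, 0.19 ± 0.40 and 0.02 ± 0.40 for Aspn. For genes with few counts the standard errors were larger, as for Fmod at day 2 (-0.55 ± 1.39), and a difference of that size was not detectable at this depth.

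The Ogn libraries of day 6 illustrate the size of the genotype difference against the replicates. In clone 48 the RxraWT libraries had 15.4, 15.2 and 12 CPM and the RxraSA libraries 19.4, 20.8 and 17.6 CPM. In clone 66 they had 5.47, 5.09 and 7.98 CPM and 7.09, 5.8 and 8.34 CPM. RxraSA was the higher in 6 of 6 pairs with the same replicate number, without overlap in clone 48 and with overlap in clone 66, and the test gave an adjusted p of 1. Within clone 48 the log2 difference was 0.45 ± 0.35 and within clone 66 it was 0.20 ± 0.36, both with an adjusted p of 1. Over the 18 pairs of all days, RxraSA was higher in 13 and lower in 5 for Ogn, 13 and lower in 5 for Omd, 12 and lower in 6 for Aspn, 8 and lower in 10 for Bgn and 8 and lower in 10 for Prelp. Among the genes with fewer counts it was higher in 6 and lower in 11 for Podn (1 equal), 6 and lower in 11 for Fmod (1 equal), 10 and lower in 6 for Dcn (2 equal) and 9 and lower in 4 for Lum (5 equal).

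**Figure D5:**
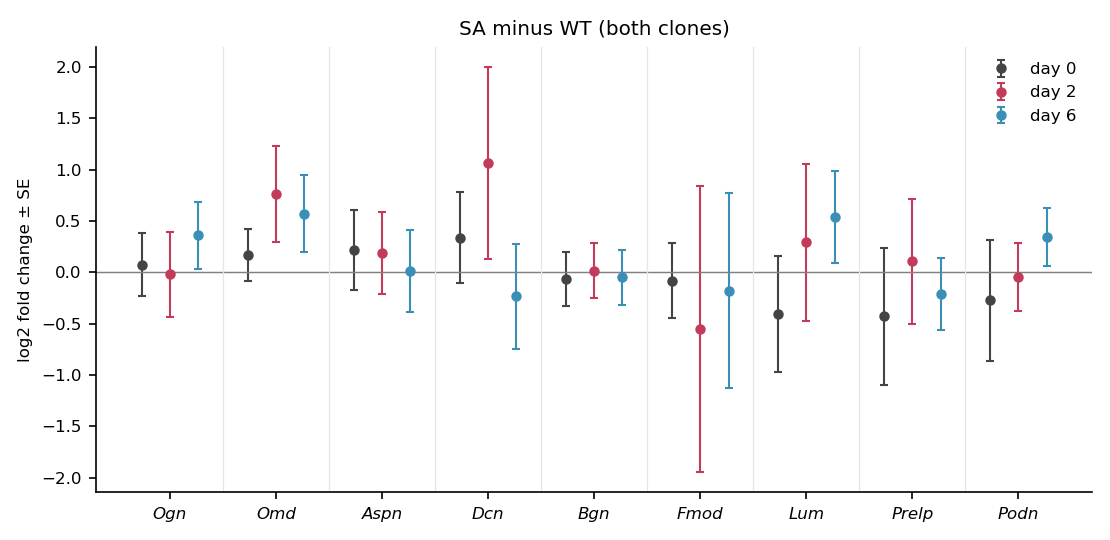
Log2 difference of RxraSA minus RxraWT at days 0, 2 and 6 for the 9 genes (vertical axis, log2 scale), with standard errors as bars. The values lie on both sides of 0, the largest in size (1.06, Dcn at day 2) rests on few counts, and none was called.

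Of 9 further SLRP genes and relatives, 5 had enough counts to be tested (Tsku, Podnl1, Chad, Chadl and Ecm2). At day 2, 4 of the 5 were called against day 0, with 1 higher and 3 lower, and at day 6 against day 2 again 4, with 2 higher and 2 lower, beside 73.3% and 62% of all genes tested. Podnl1, the closest relative of Podn, differed from Podn in the first interval, falling by 4.14 ± 0.12 on the log2 scale between days 0 and 2 (adjusted p = 2.13e-25) and rising by 1.58 ± 0.12 between days 2 and 6 (adjusted p = 4.67e-14). Tsku, a secreted antagonist of several growth factor pathways, rose by 1.81 ± 0.12 and then fell by 0.88 ± 0.12 on the log2 scale. Podnl1 was higher in clone 66 than in clone 48 at each day, by 0.70, 1.41 and 0.94 on the log2 scale.

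The genes whose log2 CPM over the 36 libraries was most like that of Ogn, among 9725 genes whose average log2 CPM was 3 or more, were Ifit1 (Pearson r = 0.988), Rab3il1 (0.987), Swap70 (0.985), Ifit2 (0.984) and Gper1 (0.984). Ifit1 and Ifit2 are interferon-induced genes, Swap70 an actin-binding signalling protein and Gper1 a membrane receptor of estrogens. Among the 9 genes, Omd (r = 0.956) and Aspn (0.852) were most like Ogn, and for Ecm2 r was 0.955. These correlations are over 36 libraries that share 3 days, and any gene that is low on the same days has a high r. The deviations of the libraries from the means of their clone, genotype and day do not hold the days, and for these r was 0.797 between Aspn and Ogn, 0.708 between Omd and Ogn, 0.708 between Ecm2 and Ogn and -0.334 between Bgn and Ogn, although libraries with the same replicate number share such deviations.

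The enzymes that build SLRP chains showed a mixed course. Of all genes tested, 73.3% were called at day 2 against day 0 and 62% at day 6 against day 2, and the counts of the lists are to be read beside these shares. Of 7 tested genes for the linkage region between core protein and chain, 4 were called at day 2 against day 0, with 3 higher and 1 lower (Pxylp1, a xylose phosphatase, -3.93 ± 0.13) and a median of 0.09. Of 12 tested chondroitin and dermatan sulfate genes, 11 were called, 3 higher and 8 lower, with a median of -0.81. The epimerases Dse (-1.32 ± 0.10) and Dsel (-1.87 ± 0.12), which turn chondroitin into dermatan sulfate, and Csgalnact1 (-1.29 ± 0.08), which starts chondroitin chains, fell, while the sulfotransferase Chst11 rose by 2.93 ± 0.14 on the log2 scale. Of 6 tested keratan sulfate genes, 5 were called, 1 higher (Fut8, 0.79 ± 0.11) and 4 lower, among them Chst2, which fell by 1.23 ± 0.12 to day 2 and by a further 2.54 ± 0.13 to day 6. Between days 2 and 6, 4 of the 7 linkage genes (2 higher, 2 lower), 7 of the 12 chondroitin and dermatan genes (4 and 3) and 5 of the 6 keratan genes (2 and 3) were called.

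The partners of the SLRPs are given in the same way. Of 9 tested collagens that bind SLRPs, 8 were called, 3 higher and 5 lower, with a median log2 fold change of -0.83. The chains of the main fibrils fell, Col1a2 by 4.63 ± 0.28, Col1a1 by 3.98 ± 0.42 and Col3a1 by 3.78 ± 0.29 on the log2 scale, and Col12a1, a fibril-associated collagen, fell by 3.13 ± 0.16. Between days 2 and 6 the 3 fibrillar chains rose again, Col1a2 by 1.78 ± 0.26, Col1a1 by 2.51 ± 0.41 and Col3a1 by 2.88 ± 0.29, whereas Col12a1 fell by a further 0.99 ± 0.15, and 6 of the 9 collagens were called in all (3 higher, 3 lower, median -0.37). Of 14 tested enzymes that process propeptides and matrix, 12 were called at day 2, 1 higher and 11 lower (median -2.14), with Lox, the collagen cross-linking oxidase, at -5.19 ± 0.19, the aggrecanase Adamts5 at -4.21 ± 0.15 and the procollagen enhancer Pcolce at -3.27 ± 0.15. From day 2 to day 6, 11 of these 14 were called, 9 higher and 2 lower (median 0.50). For comparison, 37.5% of all genes tested were called lower at day 2 and 31.9% higher at day 6 against day 2.

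Of 13 tested receptors and ligands that SLRPs bind, 11 were called at day 2, 2 higher and 9 lower (median -2.13). Tlr2, the Toll-like receptor to which biglycan binds, fell by 4.04 ± 0.15 on the log2 scale and was not called after that (-0.01 ± 0.14 from day 2 to day 6, adjusted p = 0.957). Egfr fell by 2.54 ± 0.16, Tgfb2 by 2.52 ± 0.23 and Tgfb3 by 2.19 ± 0.13 on the log2 scale. Between days 2 and 6, 8 of the 13 were called, 7 higher and 1 lower (median 0.64), among them Egfr (1.00 ± 0.15) and Tgfb3 (1.24 ± 0.13). Of 16 tested proteoglycans of other families, 13 were called at day 2, 5 higher and 8 lower (median -0.34), and 13 at day 6 against day 2, 8 higher and 5 lower (median 0.37). Vcan, a large hyaluronan-binding proteoglycan, rose by 3.47 ± 0.15 and then fell by 3.15 ± 0.15, and Sdc3, a membrane heparan sulfate proteoglycan, fell by 4.31 ± 0.23 and then rose by 2.61 ± 0.22 on the log2 scale. Col18a1, a basement membrane collagen with heparan sulfate chains, rose by 4.78 ± 0.22 between days 2 and 6, the interval in which Prelp rose.

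Markers of other cells that make SLRPs were measured beside these results. The summed level of 10 pre-adipocyte and fibroblast markers was 1222 to 2029 CPM at day 0, 80.8 to 129 at day 2 and 72.4 to 182 at day 6. This sum was thus lower on the days on which Ogn, Omd, Aspn, Fmod and Bgn were lower than at day 0. Its largest parts at day 0 were S100a4 (median 881 CPM) and Acta2 (median 290 CPM). Single markers differed, as Pi16 had medians of 0.401, 0.448 and 0.387 CPM at days 0, 2 and 6. Between days 2 and 6, Pdgfrb (0.97 ± 0.23) and Acta2 (1.28 ± 0.22) rose on the log2 scale, while S100a4 (-0.98 ± 0.20) and Ly6a (-1.05 ± 0.18) fell. Acta2 (-7.71 ± 0.23) and S100a4 (-4.87 ± 0.23) fell most between days 0 and 2, and Thy1 and Dpp4 did not exceed 0.259 and 0.0606 CPM in any library. Chondrocyte markers summed to 3.5 to 13.5 CPM at day 0, 1.08 to 2.98 at day 2 and 1.24 to 9.7 at day 6, with 3 of the 6 genes under 1 CPM in every library of day 0. Osteoblast markers summed to 5.96 to 16.8, 2.59 to 17.9 and 26 to 71.1 CPM, of which Alpl, which rose by 3.12 ± 0.30 on the log2 scale between days 2 and 6, made up 23.6 to 68.9 CPM at day 6, and Ibsp, Dmp1 and Bglap were near 0. Tendon cell markers summed to 4.27 to 41.9, 2.54 to 27.3 and 3.01 to 19 CPM. Their part in the SLRP values was not tested. Macrophage markers summed to at most 11.5 CPM with Ptprc, Adgre1 and Itgam near 0, endothelial markers to at most 0.995 CPM, and skeletal muscle markers to at most 11.8 CPM.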

How the data were processed

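RNA was sequenced from 36 libraries (TruSeq Stranded Total RNA, paired-end). Alignment by the authors used STAR 2.7.0d and GRCm38.p6, and read pairs were counted per GENCODE M21 gene with featureCounts 1.6.2 without regard to strand. The deposited values are raw counts per gene, with no normalization, and column 7 of each table was used. No other column of sample values was left out. Gene symbols, exon lengths and coordinates were taken from GENCODE M21, and promoter sequences from RefSeq.

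Low counts were removed by filterByExpr (edgeR 4.0.16), which left all 9 members, and scaling was by TMM. Days and genotypes were compared in a model of genotype-day groups plus the clone, as in the study's methods, and clones in a model with a term for each clone, genotype and day, in both cases with edgeR's quasi-likelihood test in its earlier form and Benjamini-Hochberg adjustment over all 16723 genes (adjusted p under 0.05 called). Errors of log2 fold changes are standard errors. Values within a clone are contrasts of the second model. The fold values of Dcn and Lum are ratios of summed counts with exact 95% intervals, or bounds at 3 counts over a group without counts. Both cover counting error only. Library totals of 11351078 to 24349263 counts limit the precision of genes with few counts. Since same-numbered RxraWT and RxraSA libraries of a clone and day deviated together (r over 0.1 over 9381 genes in 18 of 18 pairs, mean 0.71), the replicate numbers pair the genotypes. A block for these pairs changed no genotype call. DESeq2 1.42.0, other scalings and filters, replicate blocks, single clones and the omission of each library were tried. The contrasts of genotype within each clone were chosen after seeing the data. The scripts were tested on simulated counts.

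The members and the gene lists were chosen with earlier results of these data known. All 9 members are described. Of each other list, at most 4 genes are named, those with the largest absolute log2 fold change between days among called genes whose average log2 CPM was 3 or more, and of genes like Ogn the 5 with the highest correlation. R 4.3.3 and limma 3.58.1 were used, and python 3.11.15 with numpy 2.4.6, pandas 2.3.3, scipy 1.17.1 and matplotlib 3.10.9.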

Additional observations from a re-analysis of the deposited data

Results flagged for a closer look

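In 54 groups of 6 libraries (each gene, genotype and day), a library whose distance from the next was large against the range of its group was sought with Dixon's criterion, which chance meets in about 1 in 20 groups. Each group holds 3 libraries of each clone, and the clones differ in level for Dcn, Lum and Podn in particular, which the criterion and its chance rate do not take into account. It was met 6 times. Prelp was highest in clone 48 RxraWT replicate 3 on each day, with 0.407 CPM at day 0 (next 0.303), 1.24 CPM at day 2 (next 0.325) and 62.2 CPM at day 6 (next 26.2). Lum was highest at day 0 in clone 66 RxraWT replicate 2, with 1.58 CPM on 33 counts (next 0.305). Dcn was highest at day 2 in clone 66 RxraWT replicate 1, with 0.168 CPM on 3 counts (next 0.0553), and Podn at day 0 in clone 48 RxraSA replicate 2, with 0.287 CPM (next 0.102).

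The change over time differed between clones 66 and 48 by edgeR's quasi-likelihood test in 4 cases. The log2 differences, clone 66 minus clone 48, were 1.31 for Bgn between days 0 and 2 (adjusted p = 0.009), -1.70 for Ogn between days 0 and 6 (adjusted p = 0.0028), -1.69 for Aspn between days 2 and 6 (adjusted p = 0.0433) and -1.35 for Ogn between days 2 and 6 (adjusted p = 0.0434). Clone and library pool cannot be told apart in these values.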

How the results depend on the processing

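The 9 genes were tested again under 12 other settings and in 36 fits that each left out 1 library. For 58 single values this gave 2563 alternative values, of which 2430 kept their direction and their side of the threshold, 63 lost and 47 gained a call, and 23 changed sign. The number of members called stayed between 7 and 8 for day 2 against day 0, 7 and 8 for day 6 against day 2, 8 and 9 for day 6 against day 0, and 4 to 5, 4 to 5 and 4 to 6 between the clones at days 0, 2 and 6 when 1 library was left out. It was 0 for each genotype comparison, also within each clone alone. In the comparison of time courses between clones, 2 members in place of 1 (Bgn and Aspn) were called for days 0 and 2 without a filter and with the replicate block of each clone, and 1 to 2 without 1 library. For days 2 and 6, 1 in place of 2 (Aspn) was called with library size alone, and 0 to 2 without 1 library. The cause was not tested.

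Lum between days 0 and 2 lost its call with DESeq2, with clone 66 alone and with 7 libraries left out in turn (RxraWT replicate 2 and RxraSA replicates 1 and 2 of day 0, and RxraWT replicates 1 and 2 and RxraSA replicates 1 and 3 of day 2, all of clone 66), with values from -1.35 to -0.37. Podn between the clones at day 0 lost its call without a filter and without any one of 9 libraries, with values from -2.66 to -1.45. With clone-specific groups, Dcn and Lum lost calls between days, since the mean then includes clone 48 with few or no counts. Dcn between days 0 and 6 gained a call under 4 settings, and Omd between the clones at day 6 under 7. A filter of 1 CPM in 6 libraries removed Dcn, and clone 48 alone removed Dcn and Lum, so these have no value there.

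The signs that changed belonged to values that were not called. Aspn between days 2 and 6 was 0.33 in clone 48 alone. With library size alone, the clone difference at day 2 was -0.00421 for Omd and -0.0165 for Ogn. Without 1 library, the clone difference lay between -0.00025 and 0.233 for Bgn, -0.296 and 0.00595 for Aspn and -1.13 and 0.44 for Prelp at day 0, between -1.52 and 0.267 for Fmod, -0.384 and 0.288 for Omd and -0.264 and 0.332 for Ogn at day 2, and between -0.926 and 0.179 for Fmod at day 6.

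Replicate numbers of different days correlated above 0.1 in 27 of 36 pairs (mean r 0.389) and those of different clones in 16 of 18 (mean 0.542), against means of -0.187 and -0.278 for libraries of different numbers. Since not every pair did, and the labels tie no number to a day or culture, the numbers were not taken as pairs across days or clones. With the replicate block of each clone, 9, 8 and 9 members were called for days 2 against 0, 6 against 2 and 6 against 0, and 1 and 3 for the time courses between clones for days 0 and 6 and days 2 and 6. With a block of the number in both clones, 5, 5 and 7 were called between clones at days 0, 2 and 6, with Prelp added at day 2 (-1.34, adjusted p = 0.0132) and Prelp (-0.66, adjusted p = 0.00387) and Omd added at day 6 by edgeR's test. How many of all genes were called with either of these blocks was not counted, so nothing is read from these numbers of members. The block within each day, which pairs the genotypes, changed no call. Counting error limits Dcn, Lum, Fmod after day 0, and Prelp and Podn at day 0.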

Other observations

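Bgn and Prelp moved in opposite directions over the days, with r = -0.714 over the 36 libraries, while their deviations from the means of clone, genotype and day moved together (r = 0.808). Fmod and Prelp gave -0.371 and 0.618 in the same way, and Bgn and Fmod 0.731 and 0.567. Dcn and Lum gave 0.812 over all libraries and 0.576 for the deviations, with few counts in clone 48. Libraries with the same replicate number share deviations, so these values describe the libraries and were not tested.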
